A study of Mus musculus with 11 samples.

Results

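An artery tertiary lymphoid organ (ATLO) is a lymph node-like cell aggregate that forms in the adventitia, the outer connective tissue coat of an artery, next to an atherosclerotic lesion. The comparison described here set 4 arrays of adventitia with ATLO against 3 arrays of adventitia from wild-type mice. These are 7 of the 11 arrays of the series, chosen by the titles and tissue labels. The other 4 arrays, of adventitia outside the lesion area in the same mutant strain, are given beside them where their values help to place a difference. All mice were males of 78 weeks on a chow diet, and all tissue came from the abdominal aorta by laser microdissection of cryosections. The ATLO and outside-lesion groups were Apoe-deficient mice, strain B6.129P2-Apoe<tm1Unc>/J, which lack apolipoprotein E in every cell. The wild-type group was labelled C57BL, from the Jackson Laboratory, and its titles carry the letters PNS, which the labels do not spell out. Each ATLO or outside-lesion sample pooled 200 sections of 10 micrometres, cut from an aorta removed with its lymph nodes, fat and connective tissue.

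Genotype was not the only thing that differed between the groups. RNA of the mutant mice was extracted in Trizol and with RNeasy Micro columns and amplified for 68 h, whereas for wild type an RNeasy Lipid Tissue kit was used and amplification, with another T7 kit, took 24 h. Genotype, lesion, extraction and amplification therefore cannot be told apart between ATLO and wild type. Outside-lesion adventitia shared genotype, extraction and amplification with ATLO. The series' design text calls that group mice without lesions, while its tissue label places it outside the lesion area. ATLO tissue was dissected for its lymphoid aggregates, so that lymphocyte genes belong to what was selected. In bulk tissue, fewer cells of a type and less RNA per cell cannot be told apart. The labels do not say whether each array stands for another animal, so that the p-values measure only how these samples vary, and this variation may be technical.

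The adventitia holds fibroblasts, small vessels, nerve fibres and resident macrophages, and it borders on perivascular fat, which around the mouse aorta can be brown or white, and on the smooth muscle of the media. In a tertiary lymphoid organ, stromal cells release chemokines such as CXCL13 and CCL21 that draw B and T cells into separate areas. Lymphotoxin from lymphocytes signals back to the stroma through NF-kappaB, and plasma cells, germinal centres and antigen-presenting cells can follow. Values are array signals as the authors scaled them, in no physical unit. A change is the difference of mean log2 signals, ATLO minus wild type, ± its standard error, from a limma fit across the 14988 probe sets bright enough to test. A fold change is that difference taken back to a ratio, and the values printed with it are log2 changes. "Called" means an adjusted p under 0.05 (Benjamini-Hochberg). A gene is read by 1 probe set, the brightest, and 9055 genes were tested. Signals below a floor of 35.1 were set to it before the fit, which understates the size of a change, and the number of such arrays is given where it is not 0 in the lower group of a called gene.

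The deposited signals had array medians between 152 and 192. Apoe was read at 150, 147, 150.2 and 86.9 on the ATLO arrays and 12118, 11969 and 13164 on the wild-type arrays, so that each array fitted its genotype label (log2 change -6.57 ± 0.41, adjusted p = 1.97e-06). Degraded RNA raises the ratio of 3′ to 5′ probe signal, and for the actin control this ratio was 4.61 ± 2.71 (SD, n = 4) in ATLO and 4.98 ± 0.683 (SD, n = 3) in wild type. It was higher outside the lesion, at 8.71 ± 2.84 (SD, n = 4), with every array above every wild-type array. Extraction and amplification also differed between outside-lesion and wild-type samples, and why the ratio was higher was not tested. What the higher ratio does to comparisons with outside-lesion adventitia was not tested either. Between ATLO and wild type the ratios were compared as follows. By exact permutation of the arrays, two-sided, p was 0.8 for actin and 0.229 for the Gapdh control (1.93 against 1.20), where 0.0286 was the smallest p this design allows. Markers of the labelled tissue were present in both groups. The fibroblast genes Dcn and Dpt, the contractile genes Acta2 and Myh11, the fat cell gene Adipoq and the endothelial genes Pecam1 and Cdh5 lay above the floor on all 7 arrays. Of 15 skeletal muscle genes 4 were bright enough to test, and of 6 erythroid genes 2, none of them called. ATLO replicate 3 was high in the muscle genes, with a mean log2 signal of 7.99 against 5.57 to 5.95 on the other ATLO arrays.

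ATLO and wild-type adventitia differed in 4012 of 14988 probe sets (26.8%), of which 2001 rose in ATLO and 2011 fell. In terms of genes, 1217 of 9055 were higher (13.4%) and 1272 lower (14%), and these percentages are the background for each list below. A change of 2-fold or more was called for 642 genes upwards (7.09%) and 564 downwards (6.23%). The median change over all genes was -0.046, close to 0. For 1599 genes all ATLO arrays were above all wild-type arrays (17.7%), and for 1979 all were below (21.9%). Of the 1217 higher genes, 923 were also called higher in ATLO than outside the lesion, and of the 1272 lower genes 804 were called lower there. These comparisons share the ATLO arrays. Outside-lesion adventitia, which also differed from wild type in genotype, extraction and amplification, was called different in 279 genes (3.08%), and in 1896 (20.9%) the arrays did not overlap. Of the genes called higher in ATLO, 45 were also called higher outside the lesion and 9 were called lower there. Of those called lower in ATLO, 60 were also called lower and 17 were called higher. Both sets of calls use the same wild-type arrays, which by itself favours the same direction.

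**Figure D1:**
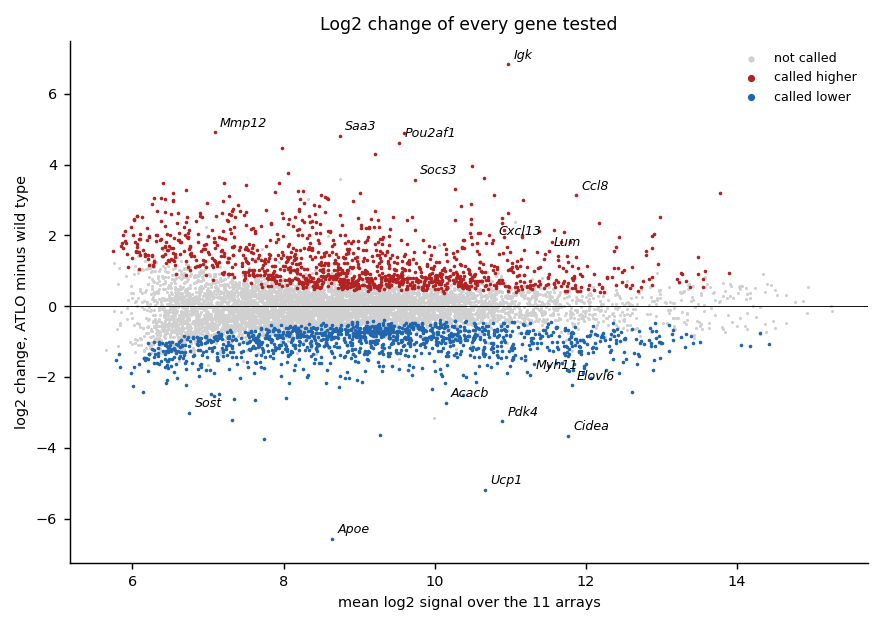
Log2 change of ATLO minus wild type (vertical axis) against mean log2 signal over the 11 arrays (horizontal axis) for the 9055 genes tested, 1 point a gene. Red points were called higher (1217), blue points lower (1272), and the named genes are among those described in the text, with Apoe at -6.57 and Igk at 6.83.

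The wild-type arrays were not alike, and each stood apart in a different group of genes. Wild-type replicate 2 was high in B cell and cell cycle genes. Its mean log2 signal over 19 B cell genes was 8.96, against 7.17 and 6.87 in replicates 1 and 3, and over 20 cell cycle genes 8.40 against 7.09 and 6.99. Wild-type replicate 1 was high in nerve genes, with 10.2 over 12 sympathetic neuron genes against 6.94 and 7.97. Wild-type replicate 3 was highest in brown fat genes (11.0 against 9.35 and 10.2). Among ATLO arrays, replicate 2 had the highest B cell mean (10.5, against 9.14 to 9.93) and the lowest contractile mean (8.74, against 9.41 to 9.77). Whether these differences lie in the animals or in what was dissected was not tested, and results that rest on 1 array are given with and without it.

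**Figure D2:**
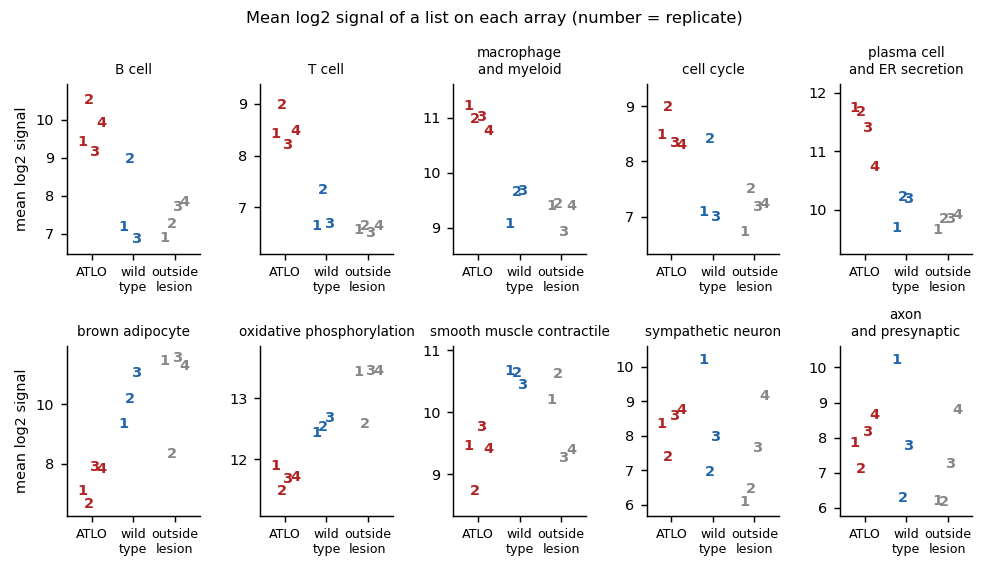
Mean log2 signal over the tested genes of 10 lists (vertical axes) on each array, by group (horizontal axes). Numerals are replicate numbers. Wild-type replicate 2 lies above the other wild-type arrays for B cell and cell cycle genes, replicate 1 for sympathetic neuron and axon genes, and replicate 3 for brown adipocyte genes.

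**Figure D3:**
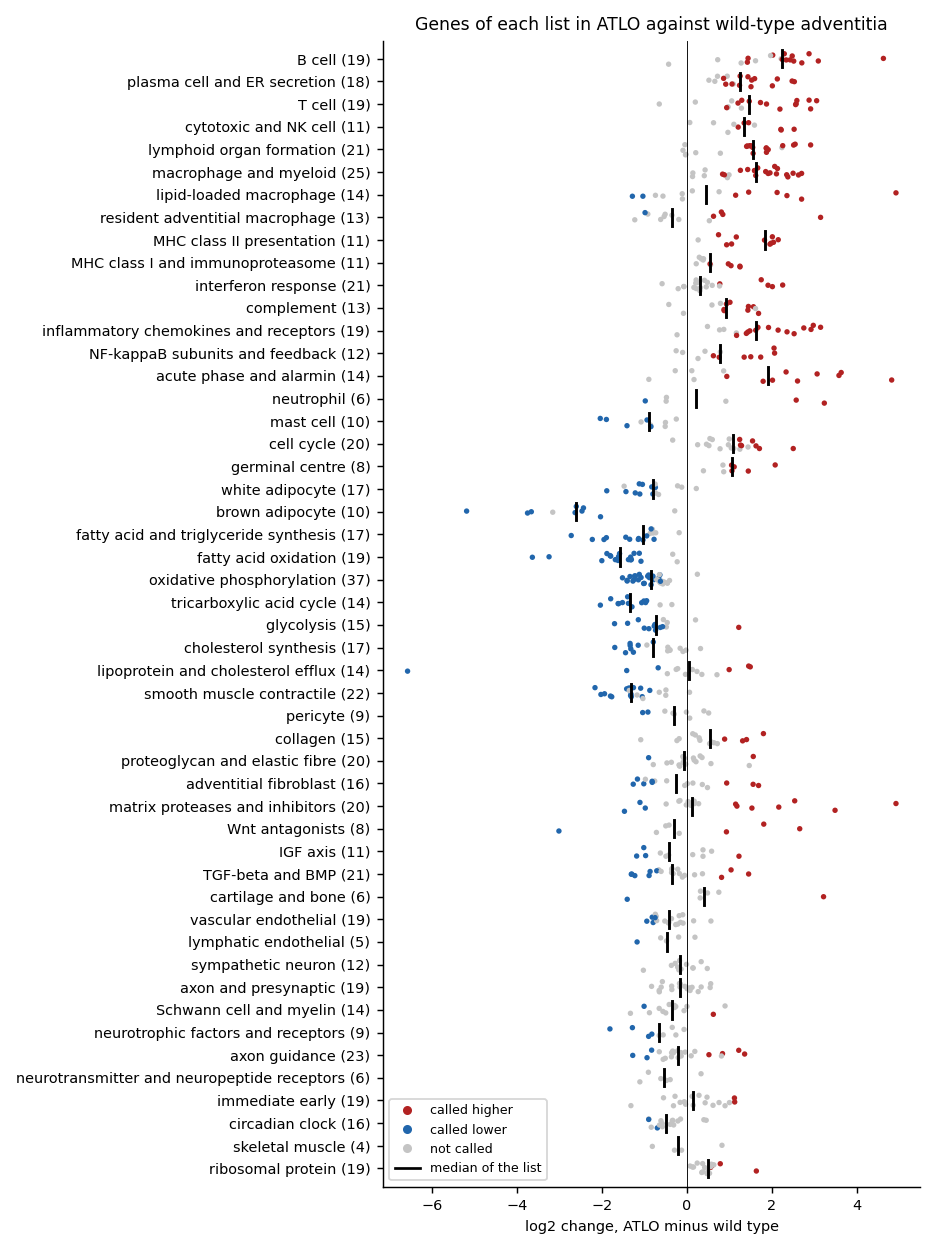
Log2 change of ATLO minus wild type (horizontal axis) for the tested genes of each list with 4 or more of them, 1 point a gene, with the number tested in parentheses. Red and blue points were called higher and lower, grey points were not called, and black bars are list medians, which run from -2.62 for brown adipocyte to 2.24 for B cell genes.

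The genes with the largest rise in ATLO were those of antibody chains, B cells, inflammatory secretion and matrix breakdown. Among the 15 that rose most without overlap between the groups, 6 were immunoglobulin light chain segments, which belong to the antibody genes rearranged in B cells. Igk was read at 57922, 14117, 21190.4 and 15954 on the ATLO arrays and 386, 146 and 146 on the wild-type arrays (log2 change 6.83 ± 0.80, adjusted p = 1.32e-04). All ATLO arrays lay far above all wild-type arrays. Another tested Igk probe set was at a log2 change of 2.15 and a further one at 0.71, the last one not called, and immunoglobulin segments are so alike that probe sets can read related transcripts. Iglv1 (3.97), Igkv4-72 (4.46), Igkv9-120 (4.29), Igkv6-14 (3.77) and Igkv4-68 (3.49) were the others. Single segments differed widely among ATLO arrays. Igkv4-72 was read at 4879, 2582, 897 and 84.9 on the ATLO arrays and 49.8, 51.7 and 34.4 on the wild-type arrays, and Igkv6-14 at 529.5, 3134, 8820.3 and 383 on the ATLO arrays and 104, 118 and 119 on the wild-type arrays. ATLO replicate 1 was the brightest in the first and ATLO replicate 3 in the second, and replicate 4 was the dimmest ATLO array in both. Trgv4, a variable segment of the T cell receptor gamma chain (3.43), Napsa, an aspartic protease (3.48), and Vav1, a signalling adaptor of blood cells (3.27), completed the lymphoid and myeloid part of the list. Without a call were dimmer probe sets of Igkv9-120 (1.63). Below the floor lay 1 of 3 wild-type arrays for Igkv4-72, 1 of 3 wild-type arrays for Igkv4-68 and 1 of 3 wild-type arrays for Vav1. Vav1, Mmp12 and Mmp13, all among the 15, were dim on all wild-type and outside-lesion arrays. They came to be tested only through the ATLO arrays, and stayed called when the brightness filter was left out. Still called, but moved by over 1.5 times without 1 array, was the fold change of Iglv1 (log2 change 4.66 without wild-type replicate 2 and 3.27 without wild-type replicate 3), Igkv4-72 (3.70 without ATLO replicate 1 and 5.64 without ATLO replicate 4), Igkv6-14 (2.93 without ATLO replicate 3 and 4.43 without ATLO replicate 4), Igkv4-68 (4.13 without ATLO replicate 4) and Napsa (4.35 without wild-type replicate 2 and 2.85 without wild-type replicate 3).

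B cell genes were higher in ATLO in 13 of 19 measured members, with none lower and a median log2 change of 2.24. Pou2af1, a coactivator of octamer-binding factors in B cells, was read at 6813, 7248, 4703 and 3464 on the ATLO arrays and 139, 1455 and 50.6 on the wild-type arrays (log2 change 4.62 ± 0.81, adjusted p = 0.00147). The groups did not overlap, yet wild-type replicate 2 was more than 10 times as bright as the other wild-type arrays. Both signalling chains of the B cell receptor rose. Cd79a was read at 1186, 2223, 809 and 1229 on the ATLO arrays and 108, 588 and 83.4 on the wild-type arrays (log2 change 2.87 ± 0.59, adjusted p = 0.00369), and Cd79b rose too (log2 change 2.70 ± 0.61, adjusted p = 0.00591). Wild-type replicate 2 again lay nearest to ATLO, and replicate 2 was the brightest array within ATLO too. The inhibitory receptor Cd72 separated the groups more evenly, with 1221, 1669, 1324 and 1281 on the ATLO arrays and 122, 329 and 103 on the wild-type arrays (log2 change 3.09 ± 0.32, adjusted p = 6.25e-05). Ms4a1, which encodes CD20, was not called (1222, 5007, 693 and 2289 on the ATLO arrays and 196, 2394 and 118 on the wild-type arrays, log2 change 2.21 ± 0.92, adjusted p = 0.093), and wild-type replicate 2 outshone 3 of the 4 ATLO arrays. A second Ms4a1 probe set was called (log2 change 3.27 ± 0.97, adjusted p = 0.0245). Ebf1, a B cell factor also made by fat cell precursors, was not higher (-0.43). Without wild-type replicate 2, 17 of the 19 genes were called higher. Against outside-lesion adventitia 17 were higher (background 19.8%), and outside the lesion 0 were called higher than in wild type (background 1.4%). A fold change moved by over 1.5 times, but stayed called, for Pou2af1 (log2 change 5.99 without wild-type replicate 2 and 3.57 without wild-type replicate 3), Cd79a (3.75 without wild-type replicate 2) and Cd79b (3.58 without wild-type replicate 2 and 2.05 without wild-type replicate 3). Removal of 1 array brought a call for Ms4a1 (without wild-type replicate 2, log2 change 3.54, adjusted p = 0.00615).

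Octamer-binding factors act through the sequence ATTTGCAT. Promoters from RefSeq (build GRCm38.p6, 250 bases before to 50 after a transcript start) were at hand for 15 of the 19 tested B cell genes, 18 promoters in all. Of these, 2 held the octamer on either strand (11.1%), against 1.74% of all 32851 promoters in the table. Below is the one that belongs to a called gene, Blnk, an adaptor of B cell receptor signalling (log2 change 2.42). It lies at chr19:40994172-40994471 (minus strand), and the octamer, in capitals, begins 130 bases before the start. A match of letters is not a bound site.
Blnk promoter: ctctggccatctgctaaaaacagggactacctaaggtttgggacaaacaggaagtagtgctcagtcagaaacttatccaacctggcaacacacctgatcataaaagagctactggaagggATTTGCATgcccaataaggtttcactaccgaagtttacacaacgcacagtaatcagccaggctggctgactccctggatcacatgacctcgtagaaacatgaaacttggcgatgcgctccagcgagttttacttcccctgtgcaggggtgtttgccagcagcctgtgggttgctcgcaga

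Genes of antibody secretion were higher as well. Of 18 genes of plasma cells and of the endoplasmic reticulum machinery that loads and folds secreted proteins, 13 were higher and none lower (median 1.24). Jchain, which joins polymeric IgA and IgM, was read at 41691, 13095, 27022 and 15754 on the ATLO arrays and 3122, 11019 and 1620.4 on the wild-type arrays (log2 change 2.52 ± 0.58, adjusted p = 0.00653). Every ATLO array was above every wild-type array, but ATLO replicate 2 exceeded wild-type replicate 2 only slightly. The reticulum proteins Creld2 (6801, 6218, 5838 and 2261 on the ATLO arrays and 397, 721 and 2355 on the wild-type arrays, log2 change 2.47 ± 0.49, adjusted p = 0.00317) and Derl3 (2.12) and the signal peptidase subunit Sec11c (log2 change 2.01 ± 0.23, adjusted p = 1.32e-04) rose. The groups overlapped for Creld2, with ATLO replicate 4 just below wild-type replicate 3. Hspa5, the general chaperone of the reticulum (0.65), and its cochaperone Dnajb9 (0.51) were not called, and wild-type replicate 3 reached the ATLO level in both. Outside the lesion 0 of these genes were called against wild type, near the background shares of 1.4% higher and 1.68% lower. Dimmer probe sets gave a call for Hspa5 (1.09). Over 1.5 times apart without 1 array, yet called, was the fold change of Jchain (log2 change 3.29 without wild-type replicate 2 and 1.90 without wild-type replicate 3) and Creld2 (3.18 without wild-type replicate 3). Dropping 1 array at a time lost the call for Derl3 (without wild-type replicate 1 or 3, log2 change 1.90 to 2.08, adjusted p up to 0.0645). A call appeared for Hspa5 (without wild-type replicate 3, log2 change 1.09, adjusted p = 0.0157) and Dnajb9 (without wild-type replicate 3, log2 change 0.80, adjusted p = 0.0238).

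T cell genes were higher in 13 of 19 members (median 1.46), none lower. Il7r, the receptor for the survival cytokine interleukin 7, was read at 1634, 1878, 1280.3 and 1455 on the ATLO arrays and 163, 293 and 137 on the wild-type arrays (log2 change 3.05 ± 0.29, adjusted p = 5.47e-05), with a wide gap between the groups. Of the T cell receptor complex, Cd3d (740.2, 1584, 458 and 684 on the ATLO arrays and 89.7, 305 and 83.3 on the wild-type arrays, log2 change 2.57 ± 0.55, adjusted p = 0.00476), Cd3e (log2 change 2.55 ± 0.56, adjusted p = 0.0054) and Cd3g (2.18) all rose. The adhesion molecule Cd2 (2.87) and the costimulatory receptor Cd28 (2.58) rose as well. Of the coreceptors, Cd4 of helper T cells was too dim to test. Cd8a (1.29) and Cd8b1 (1.87), the chains that mark cytotoxic T cells, rose. Foxp3, the factor of regulatory T cells, was not called (log2 change 0.95 ± 0.37, adjusted p = 0.0775). For the kinase Zap70 (-0.65) and the costimulator Icos (0.19) the brightest probe set was not called, while a second one was (2.16 and 2.25). The floor was not reached by 1 of 3 wild-type arrays for Cd8b1. Still called, but moved by over 1.5 times without 1 array, was the fold change of Cd3d (log2 change 3.17 without wild-type replicate 2). Leaving out single arrays ended the call for Cd8a (without ATLO replicate 1 or 2 or wild-type replicate 1, 2 or 3, log2 change 1.13 to 1.35, adjusted p up to 0.0791) and Cd8b1 (without wild-type replicate 1, log2 change 1.45, adjusted p = 0.0529).

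Of 11 genes of cytotoxic and natural killer cells, 6 were higher (median 1.34). The chemokine Ccl5, released by such cells, was read at 2096, 3273, 1465 and 2212 on the ATLO arrays and 336, 420 and 386 on the wild-type arrays (log2 change 2.52 ± 0.28, adjusted p = 9.97e-05). No array of either group crossed over. The chemokine Xcl1 (2.21), the receptor Klrd1 (2.21) and the granzyme Gzmk (1.45) rose. The killing proteins perforin, Prf1 (0.064), and granzyme A, Gzma (0.62), were not called, nor were the factor Eomes (1.10) and the receptor Klrk1 (0.96). With 1 array omitted the count moved to 3 higher without wild-type replicate 1. Signals were under the floor on 1 of 3 wild-type arrays for Xcl1. Omission of 1 array removed the call for Gzmk (without wild-type replicate 1, log2 change 1.14, adjusted p = 0.0566).

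The signals that build lymphoid tissue were raised in part, with 14 of 21 genes higher and none lower (median 1.54). Cxcl13, which attracts B cells to follicles, had signals of 4074, 5202, 4987 and 4252 on the ATLO arrays and 943, 1992 and 1080.1 on the wild-type arrays (log2 change 1.86 ± 0.27, adjusted p = 4.35e-04), and each ATLO array was at least 2-fold above each wild-type array. Its receptor Cxcr5 also rose (log2 change 1.42 ± 0.45, adjusted p = 0.0334), but its groups overlapped. Ccr7, the receptor for the T zone chemokines, was read at 240.2, 221, 139.9 and 235 on the ATLO arrays and 4, 23.6 and 4.1 on the wild-type arrays. All 3 wild-type arrays lay below the floor of 35.1 at which signals were set for the test, so that 2.54 is only a lower bound of its log2 change. Ltb, the membrane-bound subunit of lymphotoxin, was read at 796, 1646, 883 and 1733 on the ATLO arrays and 103, 429 and 90.8 on the wild-type arrays (log2 change 2.91 ± 0.52, adjusted p = 0.00164). Among ligands of the tumour necrosis factor family, Tnf (1.86), Tnfsf11, encoding RANKL (1.54), and Tnfsf13b, encoding the B cell survival factor BAFF (1.47), rose with Ltb. The receptors for lymphotoxin and for tumour necrosis factor on stromal cells were not called. Ltbr was read at 784, 448, 557 and 619.6 on the ATLO arrays and 596, 609.5 and 690.4 on the wild-type arrays (log2 change -0.096 ± 0.19, adjusted p = 0.739), and Tnfrsf1a was at a change of -0.037. The BAFF receptor family member Tnfrsf13b (2.51) and the selectin ligand Selplg (2.25) rose, as did the adhesion molecules Vcam1 (1.87) and Icam1 (1283, 1104, 1197 and 1918 on the ATLO arrays and 353, 572 and 651 on the wild-type arrays). Ccl19 and Ccl21a, the T zone chemokines, were not analysed here, and Lta and Madcam1 were too dim to test. Below the floor lay 2 of 3 wild-type arrays for Tnf. A fold change moved by over 1.5 times, but stayed called, for Ltb (log2 change 3.62 without wild-type replicate 2) and Tnfrsf13b (3.11 without wild-type replicate 2). Calls that did not survive without 1 array were those of Cxcr5 (without ATLO replicate 2 or 4 or wild-type replicate 1 or 3, log2 change 1.08 to 1.31, adjusted p up to 0.137) and Tnfsf11 (without wild-type replicate 1 or 3, log2 change 1.37 to 1.38, adjusted p up to 0.0568).

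**Figure D4:**
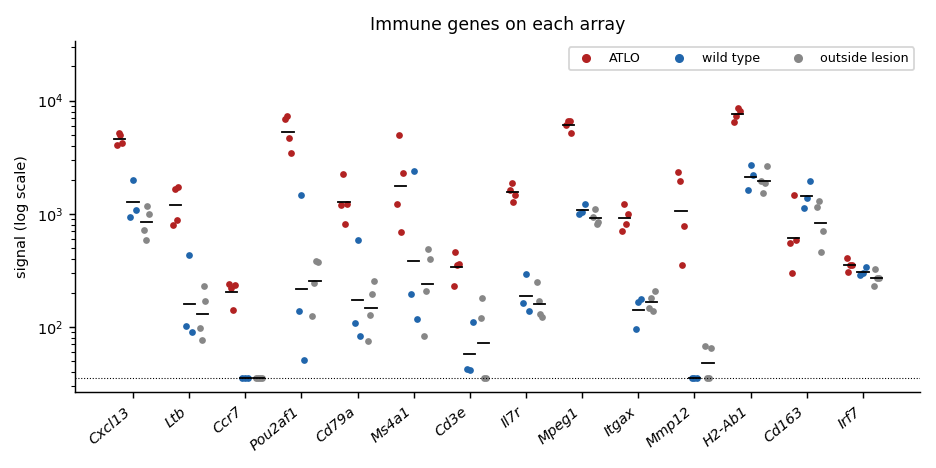
Signal of 14 immune genes (horizontal axis) on each array, on a log scale (vertical axis). Red points are ATLO, blue wild type and grey outside-lesion arrays, black bars are means of log2 values, and the dotted line is the floor of 35.1, where values below it are drawn. Wild-type replicate 2 is the high blue point of Pou2af1, Cd79a and Ms4a1, and Cd163 and Irf7 show overlapping groups.

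Macrophage and other myeloid genes were higher in 19 of 25 members (median 1.61), none lower. Mpeg1, whose product perforin-2 forms pores in engulfed bacteria, had signals of 6134, 6571, 6554 and 5197 on the ATLO arrays and 991, 1038 and 1228 on the wild-type arrays (log2 change 2.49 ± 0.16, adjusted p = 1.97e-06), with a narrow spread within both groups. The integrin Itgax, or CD11c, common on dendritic cells, was at 699, 1221, 815 and 992 on the ATLO arrays and 96.0, 164 and 177 on the wild-type arrays (log2 change 2.69 ± 0.26, adjusted p = 5.69e-05). Ptprc, the CD45 antigen of all leukocytes, rose (log2 change 2.62 ± 0.34, adjusted p = 2.29e-04), and so did Ncf4, a subunit of the phagocyte oxidase (2.37), and the scavenger protein Cd68 (log2 change 1.91 ± 0.26, adjusted p = 2.88e-04). Several abundant myeloid genes were not called by their brightest probe sets. Csf1r, the growth factor receptor on which macrophages depend, was at 13661, 7588, 16690.3 and 11825 on the ATLO arrays and 8264, 9916 and 8648 on the wild-type arrays (log2 change 0.42 ± 0.26, adjusted p = 0.236), so that ATLO replicate 2 lay below all wild-type arrays and the other ATLO arrays above them. The lysosomal proteases Ctsb (0.14) and Ctsd (0.13), which fat and stromal cells also make, and the lysozyme Lyz2 (0.95) were not called. Outside the lesion 0 myeloid genes were called against wild type, near the background shares of 1.4% higher and 1.68% lower. By a dimmer probe set the test was passed for Csf1r (1.05) and Ctsb (0.88). Over 1.5 times apart without 1 array, yet called, was the fold change of Ptprc (log2 change 3.21 without wild-type replicate 2). A call appeared with 1 array omitted for Csf1r (without ATLO replicate 2, log2 change 0.64, adjusted p = 0.0432) and Lyz2 (without ATLO replicate 4, log2 change 1.08, adjusted p = 0.0484).

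Of 14 genes of lipid-loaded macrophages, 6 were higher and 2 lower, the latter near the background share (median 0.44). Mmp12, the macrophage elastase, was read at 2346, 1959, 351 and 774 on the ATLO arrays and 4.7, 4.1 and 19.0 on the wild-type arrays. As wild type was below the floor, 4.91 is only a lower bound of its log2 change. Mmp12 passed the brightness filter only through the ATLO arrays. Trem2, a lipid-sensing receptor, was read at 209, 97.5, 209 and 126 on the ATLO arrays and 9.7, 9.7 and 13.2 on the wild-type arrays, also with wild type below the floor, and its 2.12 is a bound as well. Lgals3, galectin 3, rose (log2 change 2.35 ± 0.23, adjusted p = 6.01e-05). The lipid droplet coat Plin2 (-1.29) and the fatty acid transporter Cd36 (-1.04), which are abundant in fat cells, were called lower. Lpl (-0.74) and Fabp5 (-0.57) were not called. Of the cholesterol exporters, Abcg1 rose (log2 change 1.45 ± 0.19, adjusted p = 2.66e-04), while Abca1 did not pass the test (4845, 4086, 3910 and 4041 on the ATLO arrays and 3646, 3856 and 4088 on the wild-type arrays, log2 change 0.12 ± 0.17, adjusted p = 0.613). Only dimmer probe sets were called for Lpl (-1.06). Gained by leaving out 1 array were the calls for Lpl (without ATLO replicate 1, log2 change -0.91, adjusted p = 0.0286).

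Of 13 genes that mark macrophages resident in the adventitia, 4 were higher, 1 was lower and the median was -0.36. Cd163, the haemoglobin scavenger receptor, was read at 554, 301, 1468 and 586 on the ATLO arrays and 1125, 1387 and 1928 on the wild-type arrays (log2 change -1.23 ± 0.45, adjusted p = 0.0605), where only ATLO replicate 3 reached the wild-type range. Lyve1 (log2 change -0.62 ± 0.23, adjusted p = 0.0573), Pf4 (-0.36) and F13a1 (-0.19) were not called, and the lectin Cd209f was called lower (-0.99). Members that were higher were Ccl8, a secreted chemokine (15484, 9091, 14012 and 7523 on the ATLO arrays and 878, 1496 and 1494 on the wild-type arrays, log2 change 3.14 ± 0.29, adjusted p = 4.96e-05), the growth factor Gas6 (0.84), the lectin Clec10a (0.81) and the scavenger receptor Stab1. Ccl8 was also above wild type outside the lesion, with 2691, 3388, 2017 and 3874 (log2 change 1.21 ± 0.29, adjusted p = 0.0425). The count, with 1 array omitted, moved to 2 higher without ATLO replicate 3 or 4 or wild-type replicate 1, 2 or 3, 0 lower without wild-type replicate 2 and 4 lower without ATLO replicate 3. The call ended on removing single arrays for Cd209f (without wild-type replicate 1 or 2, log2 change -0.85 to -0.84, adjusted p up to 0.0776), Gas6 (without ATLO replicate 3 or 4 or wild-type replicate 1 or 2, log2 change 0.68 to 0.87, adjusted p up to 0.113) and Clec10a (without wild-type replicate 3, log2 change 0.72, adjusted p = 0.0595). Calls were gained for Cd163 (without ATLO replicate 3, log2 change -1.65, adjusted p = 0.00927) and Lyve1 (without wild-type replicate 1, log2 change -0.85, adjusted p = 0.0236).

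Genes of antigen presentation by MHC class II were called higher in 10 of 11 (median 1.82). H2-Ab1, the class II beta chain, was read at 6417, 7251, 8555 and 8099 on the ATLO arrays and 1631, 2679.7 and 2219.7 on the wild-type arrays (log2 change 1.82 ± 0.21, adjusted p = 1.27e-04), and H2-Eb1 (log2 change 1.97 ± 0.27, adjusted p = 3.17e-04) and the invariant chain Cd74 (log2 change 2.03 ± 0.28, adjusted p = 3.04e-04) moved with it. The H2-Aa alpha chain changed less (log2 change 0.93 ± 0.29, adjusted p = 0.0302), with 1 ATLO array close to wild type, and a second H2-Aa probe set was at 2.17. Ifi30, a reductase of the antigen-loading compartment (2.14), H2-Oa, which tunes loading in B cells (2.01), and the class II transactivator Ciita (154, 398, 235 and 304 on the ATLO arrays and 96.4, 168 and 95.0 on the wild-type arrays, log2 change 1.16 ± 0.33, adjusted p = 0.0214) rose. H2-DMb2 was the member not called (0.26). Omission of single arrays moved the count to 5 higher without wild-type replicate 1 or 3. Still called, but moved by over 1.5 times without 1 array, was the fold change of H2-Oa (log2 change 2.73 without wild-type replicate 2). Not called without certain arrays were H2-Aa (without ATLO replicate 1, 3 or 4 or wild-type replicate 1, 2 or 3, log2 change 0.75 to 0.96, adjusted p up to 0.0867), H2-Oa (without wild-type replicate 1 or 3, log2 change 1.58 to 1.71, adjusted p up to 0.0815) and Ciita (without ATLO replicate 2 or 4 or wild-type replicate 1 or 3, log2 change 0.95 to 1.08, adjusted p up to 0.0847).

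Of 11 genes of MHC class I and the immunoproteasome, 5 were higher (median 0.54), and they were those of peptide supply. These were the peptide pump subunit Tap1 (log2 change 1.24 ± 0.17, adjusted p = 2.71e-04), the loading factor Tapbp (1.24), the immunoproteasome subunits Psmb9 (1.03) and Psmb8 (0.97) and the proteasome activator Psme1 (0.54). The class I heavy chain H2-K1 (0.55) and the light chain B2m (0.22) were not called, though other probe sets of both were (0.87 for B2m and, for H2-K1, 1.68 and 0.83). Class I genes are alike and can be read by each other's probe sets. Leaving out 1 array gave 3 higher without wild-type replicate 1. Not every probe set gave the call for Tapbp (-0.39). Averaging the probe sets of a gene ended the call for Tapbp (0.42, adjusted p = 0.268). The call depended on 1 array for Psmb8 (without wild-type replicate 1, log2 change 0.81, adjusted p = 0.0545) and Psme1 (without ATLO replicate 2 or wild-type replicate 1 or 3, log2 change 0.43 to 0.53, adjusted p up to 0.114). The call was gained for H2-K1 (without ATLO replicate 2, log2 change 0.68, adjusted p = 0.014).

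Of 21 genes of the interferon response, 5 were higher and none lower (median 0.31). The myeloid and B cell factor Irf8 (log2 change 2.25 ± 0.34, adjusted p = 5.29e-04) and the chemokines Cxcl9 (1081, 1506, 572 and 775 on the ATLO arrays and 221, 419.8 and 130 on the wild-type arrays, log2 change 2.01 ± 0.40, adjusted p = 0.00292) and Cxcl10 (617, 477, 347 and 432 on the ATLO arrays and 103, 132 and 135 on the wild-type arrays, log2 change 1.90 ± 0.31, adjusted p = 9.43e-04), which recruit activated T cells, led, with Mx1, an antiviral GTPase (1.74), and the factor Irf1 (0.77). The groups of Cxcl9 and Cxcl10 did not overlap. Several other genes induced by type I interferon were not called, among them Irf7 (409, 307, 353 and 350.3 on the ATLO arrays and 285, 297 and 340.3 on the wild-type arrays, log2 change 0.20 ± 0.18, adjusted p = 0.425), Ifit1 (-0.077), Ifit3 (-0.21), Usp18 (-0.075) and Rsad2 (-0.59). The GTPases Iigp1 (0.25) and Igtp (0.21) were not called either. Against outside-lesion adventitia, 13 of the 21 were higher (background 19.8%), and outside the lesion the median change against wild type was -0.42, with none called (background 3.08%). The call came from a dimmer probe set for Iigp1 (0.65).

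The interferon-stimulated response element, GAAA, any 2 bases and GAAA again, on either strand, was looked for in the promoters of the same list. Of 22 promoters of 18 genes, 11 held it (50%), each from another gene, against 3.44% of all promoters. Of the 5 called genes Cxcl10 was 1 with a match, and the other matches were in genes that were not called. The promoters of Cxcl10 at chr5:92348840-92349139 (minus strand) and of Ifit1 at chr19:34640639-34640938 (plus strand) show the element, in capitals, in a gene that rose and in one that was not called. It begins 213 bases before the start in Cxcl10 and 104 and 85 bases before it in Ifit1.
Cxcl10 promoter: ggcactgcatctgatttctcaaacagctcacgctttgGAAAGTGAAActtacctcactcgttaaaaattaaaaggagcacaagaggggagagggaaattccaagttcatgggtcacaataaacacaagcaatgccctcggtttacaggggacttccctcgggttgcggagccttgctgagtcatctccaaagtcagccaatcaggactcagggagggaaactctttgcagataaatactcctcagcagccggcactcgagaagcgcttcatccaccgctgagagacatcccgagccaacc
Ifit1 promoter: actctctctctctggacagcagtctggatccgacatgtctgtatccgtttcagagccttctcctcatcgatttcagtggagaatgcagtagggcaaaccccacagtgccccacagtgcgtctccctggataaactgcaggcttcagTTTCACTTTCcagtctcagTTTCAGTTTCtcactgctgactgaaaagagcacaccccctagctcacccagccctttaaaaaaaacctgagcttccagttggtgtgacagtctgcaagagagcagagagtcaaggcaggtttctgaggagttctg

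Inflammatory chemokines and their receptors were higher in 14 of 19 (median 1.61). Of the ligands for monocytes, Ccl12 (2.75), Ccl7 (2.35) and Ccl2 (1.43) rose, and their receptor Ccr2 was read at 1418, 1543, 1607 and 2182 on the ATLO arrays and 271, 253 and 141 on the wild-type arrays (log2 change 2.97 ± 0.30, adjusted p = 6.16e-05), without overlap. The neutrophil attractant Cxcl1 was at 942, 129.2, 478 and 818 on the ATLO arrays and 55.9, 53.1 and 80.1 on the wild-type arrays (log2 change 2.91 ± 0.54, adjusted p = 0.00202). ATLO replicate 2 had the lowest Cxcl1 of the ATLO arrays. Among lymphocyte receptors, Cxcr3 (1.92) and Ccr6 (2.14) rose. Ccl6 (0.76) and Ccl9 (0.86) were not called, and wild-type replicate 3 was as bright as ATLO (5914 and 4064, against 1041 to 1506 on the other wild-type arrays). The floor was not reached by 1 of 3 wild-type arrays for Ccl7. A fold change moved by over 1.5 times, but stayed called, for Cxcl1 (log2 change 3.53 without ATLO replicate 2). With fewer arrays no call was left for Ccl2 (without ATLO replicate 1 or 4 or wild-type replicate 1, log2 change 1.24 to 1.34, adjusted p up to 0.0812). A call appeared for Ccl6 (without wild-type replicate 3, log2 change 1.45, adjusted p = 0.0279) and Ccl9 (without wild-type replicate 3, log2 change 1.496, adjusted p = 0.0115).

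Complement genes were higher in 8 of 13 (median 0.93). C1qb and C1qc, chains of the recognition protein C1q, were at 1.68 ± 0.26 and 1.43 ± 0.31, and the third chain, C1qa, was not called (log2 change 0.79 ± 0.34, adjusted p = 0.101). C3ar1, the receptor for the fragment C3a (log2 change 1.56 ± 0.26, adjusted p = 9.68e-04), and Cfb, a protease component of the alternative pathway (1.44), rose. The inhibitor Serping1 was not called (0.59). Without single arrays the count moved to 5 higher without wild-type replicate 1. Of NF-kappaB subunits and feedback genes, 7 of 12 were higher. They included the survival adaptor Traf1 (2.06), the inhibitor-like Bcl3 (2.04) and Nfkbie (1.73), and Relb, the subunit of the noncanonical pathway (1.498). Rela, the main canonical subunit (0.26), and its inhibitor Nfkbia (0.42) were not called. Dropping 1 array changed the count to 4 higher without ATLO replicate 2, 3 or 4 or wild-type replicate 3. Dimmer probe sets gave a call for Nfkbia (1.01 and 0.99). Signals were under the floor on 1 of 3 wild-type arrays for Relb. Dropping 1 array at a time lost the call for Relb (without ATLO replicate 1, 2, 3 or 4 or wild-type replicate 3, log2 change 0.66 to 1.54, adjusted p up to 0.0705).

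Acute phase and alarmin genes held some of the steepest rises, with 9 of 14 higher (median 1.90). Saa3, a serum amyloid made outside the liver, was read at 3664, 2014, 6270.4 and 2450.4 on the ATLO arrays and 78.7, 96.9 and 206 on the wild-type arrays (log2 change 4.81 ± 0.69, adjusted p = 4.21e-04). Socs3, the feedback inhibitor of interleukin 6 signalling, was at 3232, 2130, 2573 and 4727 on the ATLO arrays and 195, 249 and 338 on the wild-type arrays (log2 change 3.57 ± 0.30, adjusted p = 2.05e-05), and Il6 itself at 743, 109, 189.5 and 741 on the ATLO arrays and 44.6, 34.3 and 38.4 on the wild-type arrays (log2 change 3.06 ± 0.58, adjusted p = 0.00224). Il6 was high in ATLO replicates 1 and 4 and much lower in replicates 2 and 3, though still above wild type. Serpina3n, an acute phase protease inhibitor, also rose (log2 change 3.31 ± 0.34, adjusted p = 6.25e-05). Slpi, an inhibitor of neutrophil elastase, was at 15528, 12872, 17172 and 2618 on the ATLO arrays and 185, 11358 and 234 on the wild-type arrays (log2 change 3.62 ± 1.18, adjusted p = 0.0362), and wild-type replicate 2, high in B cell genes, was far above the other wild-type arrays here too. Hp, haptoglobin, which fat makes in quantity (0.16), and the factor Cebpb (-0.28) were not called. Socs3 was also above wild type outside the lesion, at 396, 552, 825 and 718 (log2 change 1.24 ± 0.30, adjusted p = 0.0417). Below the floor lay 1 of 3 wild-type arrays for Il6. Over 1.5 times apart without 1 array, yet called, was the fold change of Slpi (log2 change 4.26 without ATLO replicate 4 and 5.55 without wild-type replicate 2). Leaving out single arrays ended the call for Slpi (without ATLO replicate 1, 2 or 3 or wild-type replicate 1 or 3, log2 change 2.58 to 3.49, adjusted p up to 0.165).

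Other white cells differed in direction. The calprotectin genes of neutrophils, S100a8 (1612, 1027, 909 and 1306 on the ATLO arrays and 121, 114 and 575 on the wild-type arrays, log2 change 2.57 ± 0.62, adjusted p = 0.00864) and S100a9 (3.23), rose, and wild-type replicate 3 was the brightest of its group in both. Of the other neutrophil genes, Csf3r (0.91) and Ngp (-0.48) were not called and Mmp9 was called lower (-0.98), with 6 genes tested in all. Without single arrays the neutrophil count moved to 1 higher without wild-type replicate 1 or 2 and 0 lower without ATLO replicate 1, 2, 3 or 4 or wild-type replicate 1 or 2. Mast cell genes were lower, 5 of 10 called and none higher (median -0.90). The mast cell proteases Mcpt4 (129.2, 102, 262 and 466 on the ATLO arrays and 1044, 881 and 609.7 on the wild-type arrays, log2 change -2.04 ± 0.45, adjusted p = 0.00545), Mcpt2 (-1.90, a lower bound in size, as all 4 ATLO arrays lay below the floor), Cpa3 (log2 change -1.41 ± 0.35, adjusted p = 0.0102) and Cma1 (-0.94) fell, whereas the growth factor receptor Kit (-0.25) and the tryptase Tpsb2 (-0.51) were not called. Mcpt4 and Cpa3 showed no overlap. When 1 array was dropped, the mast cell count moved to 3 lower without wild-type replicate 1. The test was missed by dimmer probe sets of Mmp9 (-0.57). With probe sets averaged per gene, the call ended for Mmp9 (-0.78, adjusted p = 0.0984). The floor was not reached by 1 of 3 wild-type arrays for S100a9. Still called, but moved by over 1.5 times without 1 array, was the fold change of S100a8 (log2 change 3.33 without wild-type replicate 3) and S100a9 (4.45 without wild-type replicate 3). Omission of 1 array removed the call for S100a9 (without wild-type replicate 1 or 2, log2 change 2.61 to 2.62, adjusted p up to 0.0666), Mmp9 (without ATLO replicate 1, 2, 3 or 4 or wild-type replicate 1 or 2, log2 change -1.02 to -0.88, adjusted p up to 0.11) and Cma1 (without ATLO replicate 1 or 2 or wild-type replicate 1, 2 or 3, log2 change -1.04 to -0.64, adjusted p up to 0.122).

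Of 20 cell cycle genes, 7 were called higher and none lower (median 1.07). Mki67, the Ki-67 antigen of dividing cells, was read at 772, 1564, 768 and 590.3 on the ATLO arrays and 84.2, 691 and 60.8 on the wild-type arrays (log2 change 2.497 ± 0.69, adjusted p = 0.0171). Wild-type replicate 2 reached the ATLO range. Top2a, topoisomerase II, was at 477, 777, 473 and 463 on the ATLO arrays and 112, 526 and 131 on the wild-type arrays and was not called (log2 change 1.43 ± 0.53, adjusted p = 0.0625). The nucleotide-synthesis enzyme Rrm2 (1.70), the kinase Cdk1 (1.62) and, of the replication helicase, Mcm3 (1.54), Mcm4 (1.28) and Mcm6 (1.26) rose, but Mcm2 (0.54), Mcm5 (1.04), Mcm7 (0.51) and the clamp Pcna (0.59) were not called. With 1 array left out the count moved to 0 higher without wild-type replicate 3, 1 higher without wild-type replicate 1 and 16 higher without wild-type replicate 2. Of 8 germinal centre genes, 5 were higher. They were the B cell costimulator Cd40 (305, 538, 285 and 453 on the ATLO arrays and 92.8, 158 and 51.1 on the wild-type arrays, log2 change 2.07 ± 0.36, adjusted p = 0.00137), the helper cytokine Il21 (1.11) and its receptor Il21r (1.44), Cd83 (1.05) and the death receptor Fas (1.06). Fas was also above wild type outside the lesion (log2 change 1.16 ± 0.25, adjusted p = 0.0311). Bcl6, the master factor of the germinal centre (0.84), and Basp1 (0.86) were not called. The count, with 1 array omitted, moved to 2 higher without ATLO replicate 2 or 4 or wild-type replicate 3 and 3 higher without wild-type replicate 1. Some dimmer probe sets were not called, for Rrm2 (0.64 and 1.55), Mcm3 (0.36 and 1.13), Mcm4 (0.40) and Mcm6 (0.91). Averaging the probe sets of a gene ended the call for Rrm2 (1.30, adjusted p = 0.0688). Signals were under the floor on 1 of 3 wild-type arrays for Cdk1. A fold change moved by over 1.5 times, but stayed called, for Mki67 (log2 change 3.59 without wild-type replicate 2), Rrm2 (2.35 without wild-type replicate 2) and Cdk1 (2.26 without wild-type replicate 2). Calls that did not survive without 1 array were those of Mki67 (without wild-type replicate 1 or 3, log2 change 1.83 to 2.07, adjusted p up to 0.0895), Rrm2 (without wild-type replicate 1 or 3, log2 change 1.36 to 1.39, adjusted p up to 0.071), Cdk1 (without wild-type replicate 1 or 3, log2 change 1.16 to 1.44, adjusted p up to 0.0843), Mcm3 (without wild-type replicate 1 or 3, log2 change 1.34 to 1.42, adjusted p up to 0.0573), Mcm4 (without ATLO replicate 2 or wild-type replicate 1 or 3, log2 change 0.91 to 1.31, adjusted p up to 0.107), Mcm6 (without wild-type replicate 3, log2 change 0.95, adjusted p = 0.079), Il21 (without ATLO replicate 1, 2 or 4 or wild-type replicate 1 or 3, log2 change 0.87 to 1.08, adjusted p up to 0.148), Il21r (without ATLO replicate 2 or 4 or wild-type replicate 3, log2 change 1.03 to 1.30, adjusted p up to 0.0995) and Cd83 (without ATLO replicate 2 or 4 or wild-type replicate 1 or 3, log2 change 0.78 to 1.01, adjusted p up to 0.15). Calls were gained for Top2a (without wild-type replicate 2, log2 change 2.14, adjusted p = 0.00764), Mcm2 (without wild-type replicate 2, log2 change 0.87, adjusted p = 0.0275), Mcm5 (without wild-type replicate 2, log2 change 1.45, adjusted p = 0.0297), Mcm7 (without wild-type replicate 2, log2 change 0.73, adjusted p = 0.0164) and Pcna (without wild-type replicate 2, log2 change 0.87, adjusted p = 0.0362).

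Brown fat genes fell most. Of 10 tested, 8 were lower and none higher, with a median of -2.62. Ucp1, the uncoupling protein that makes brown fat produce heat, was read at 14.2, 4.3, 695 and 661 on the ATLO arrays and 1573, 5513 and 20357 on the wild-type arrays (log2 change -5.18 ± 1.70, adjusted p = 0.0382). It lay below the floor in ATLO replicates 1 and 2 and spanned more than 10-fold in wild type, where replicate 3 was highest. Outside the lesion it was at 26125, 143, 26624 and 20513, far lower in replicate 2 than in the others. Cidea, which sits on lipid droplets in brown fat cells, was at 572, 360.1, 874 and 947 on the ATLO arrays and 6513, 9704 and 8534 on the wild-type arrays (log2 change -3.66 ± 0.54, adjusted p = 5.12e-04), with a clear gap. Ppargc1a, the coactivator of mitochondrial genes (log2 change -2.63 ± 0.54, adjusted p = 0.00371), Slc27a2, a fatty acid transporter and ligase (-3.75), and Elovl3, a fatty acid elongase (-2.60), fell. Cox7a1, a cytochrome oxidase subunit of heart and brown fat, was not called in spite of its size (119.5, 75.3, 409 and 343 on the ATLO arrays and 849, 2055 and 2739 on the wild-type arrays, log2 change -3.16 ± 1.18, adjusted p = 0.0632). The deiodinase Dio2 was not called (-0.29). Omission of single arrays moved the count to 5 lower without wild-type replicate 3. Below the floor lay 3 of 4 ATLO arrays for Slc27a2. Over 1.5 times apart without 1 array, yet called, was the fold change of Ucp1 (log2 change -5.91 without ATLO replicate 3, -5.88 without ATLO replicate 4 and -6.10 without wild-type replicate 1), Ppargc1a (-2.02 without wild-type replicate 3), Slc27a2 (-4.37 without wild-type replicate 1) and Elovl3 (-3.36 without wild-type replicate 1). The call ended on removing single arrays for Ucp1 (without ATLO replicate 1 or 2 or wild-type replicate 2 or 3, log2 change -5.20 to -4.26, adjusted p up to 0.144) and Slc27a2 (without wild-type replicate 3, log2 change -2.92, adjusted p = 0.0934).

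Of 17 white fat genes 10 fell and none rose (median -0.81). Adipoq, the fat hormone adiponectin, was read at 15968, 8152, 11942 and 14621 on the ATLO arrays and 21556, 19437 and 21754 on the wild-type arrays (log2 change -0.77 ± 0.24, adjusted p = 0.03), without overlap, and ATLO replicate 2 was the lowest. Slc2a4, the insulin-responsive glucose transporter, fell further (712, 418, 755 and 601 on the ATLO arrays and 2062, 2296 and 2389 on the wild-type arrays, log2 change -1.89 ± 0.23, adjusted p = 1.72e-04). Npr3, a natriuretic peptide receptor (-1.44), the hormone-sensitive lipase Lipe (-1.22) and Pparg, the master factor of fat cells (-1.12), fell. Lep, leptin (-0.22), and Fabp4 (-0.13) were not called, and the 4 Fabp4 probe sets disagreed (-1.92, -1.49, -0.13 and 1.22). Outside the lesion 3 of 17 were called above wild type (background 1.4%), with a median of 0.70, and 15 were lower in ATLO than outside the lesion (background 14.9%). Leaving out 1 array gave 5 lower without wild-type replicate 3 and 6 lower without wild-type replicate 1. Not called without certain arrays were Adipoq (without ATLO replicate 3 or wild-type replicate 1, 2 or 3, log2 change -0.82 to -0.74, adjusted p up to 0.0931) and Pparg (without wild-type replicate 3, log2 change -0.90, adjusted p = 0.0827).

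Genes for the synthesis of fatty acids and triglycerides were lower in 12 of 17 (median -1.04). Acacb, an acetyl-CoA carboxylase, was read at 477, 230.3, 428 and 324 on the ATLO arrays and 1959, 2326 and 2745 on the wild-type arrays (log2 change -2.72 ± 0.28, adjusted p = 6.67e-05), and the elongase Elovl6 at 2019, 1378, 1317 and 1065 on the ATLO arrays and 8513, 7438 and 4515 on the wild-type arrays (log2 change -2.23 ± 0.36, adjusted p = 9.15e-04). The carbohydrate-sensing factor Mlxipl (-1.95) and malic enzyme Me1 (-1.90), which supplies reducing power, fell too. The most abundant enzymes, Scd1 (-0.19) and Fasn (-0.80), were not called, although ATLO replicate 2 was low in both. Cholesterol synthesis genes were lower in 8 of 17 (median -0.79). Sc5d (-1.70), Fdft1 (-1.45), Fdps (-1.34) and Idi1 (-1.34), enzymes from the isoprenoid steps to the last sterol steps, fell, and Ebp (-0.097) and Msmo1 (-0.40) were not called. Wild-type replicate 1 was the highest of its group in these 4 (for Idi1, 344, 619.9, 407 and 429.8 on the ATLO arrays and 1505, 1145 and 797 on the wild-type arrays). With 1 array omitted the cholesterol count moved to 3 lower without wild-type replicate 1 and 5 lower without wild-type replicate 2. By a dimmer probe set the test was passed for Scd1 (-1.64). Without a call were dimmer probe sets of Sc5d (-0.44) and Idi1 (-0.71). Still called, but moved by over 1.5 times without 1 array, was the fold change of Fdft1 (log2 change -2.05 without wild-type replicate 3). The call depended on 1 array for Fdft1 (without ATLO replicate 1 or 2 or wild-type replicate 1 or 2, log2 change -1.39 to -1.07, adjusted p up to 0.117) and Fdps (without ATLO replicate 3 or wild-type replicate 1, log2 change -1.16 to -0.96, adjusted p up to 0.114). The call was gained for Fasn (without ATLO replicate 1, log2 change -1.05, adjusted p = 0.0144).

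Of 19 genes of fatty acid oxidation 17 fell and none rose (median -1.59). Fabp3, the fatty acid carrier of muscle and brown fat, was read at 76.3, 45.1, 236 and 179 on the ATLO arrays and 675, 1093 and 3463 on the wild-type arrays (log2 change -3.64 ± 1.18, adjusted p = 0.036). Pdk4, the kinase that spares glucose when fat is burnt, was at 408, 308, 475 and 601 on the ATLO arrays and 3421, 3807 and 5387 on the wild-type arrays (log2 change -3.25 ± 0.58, adjusted p = 0.00161). Wild type was above ATLO on every array in both. All 3 genes of electron transfer from beta-oxidation fell, Etfa (-1.89), Etfb (-1.12) and Etfdh (-2.005). Of the trifunctional protein the Hadha subunit fell (-1.25) and Hadhb was not called by its brightest probe set (6119.7, 4209, 5474 and 6319.7 on the ATLO arrays and 7593, 5834 and 7429.7 on the wild-type arrays, log2 change -0.34 ± 0.27, adjusted p = 0.37). Hadhb was called above wild type outside the lesion (log2 change 1.62 ± 0.27, adjusted p = 0.0149). Cpt1a, the liver-type enzyme of the entry step into mitochondria, was not called (-0.23), and its other probe sets were at 1.52, called, and 0.93, not called. Only dimmer probe sets were called for Hadhb (-2.03). With fewer arrays no call was left for Fabp3 (without ATLO replicate 1, 2 or 4 or wild-type replicate 2 or 3, log2 change -3.87 to -2.97, adjusted p up to 0.14) and Etfb (without wild-type replicate 3, log2 change -0.91, adjusted p = 0.0568).

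Genes of mitochondrial respiration fell too. In the tricarboxylic acid cycle, 12 of 14 genes fell (median -1.34), and none rose. Idh3a, the catalytic subunit of isocitrate dehydrogenase, was read at 1781, 1459.5, 1486 and 1720.4 on the ATLO arrays and 5392, 5599.8 and 9519.6 on the wild-type arrays (log2 change -2.04 ± 0.30, adjusted p = 5.31e-04). Cs, citrate synthase (log2 change -1.02 ± 0.29, adjusted p = 0.0196), Sucla2 (-1.80), Pdhb of pyruvate dehydrogenase (-1.62) and Dlst (-1.61) fell, and Mdh2 (-0.63) and Suclg2 (-0.36) were not called. Of 37 genes of oxidative phosphorylation 24 fell and none rose by its brightest probe set (median -0.85). All ATLO arrays lay below all wild-type arrays in 34 (background 21.9%). A dimmer probe set of Atp5o was called higher (0.73). Cyc1, cytochrome c1, was at 3116, 2401, 3011 and 3581 on the ATLO arrays and 6906, 7894 and 9244 on the wild-type arrays (log2 change -1.41 ± 0.29, adjusted p = 0.00363). The other leading falls were in complex II (Sdhd, -1.52), complex III (Uqcrfs1, -1.41) and Ndufa4 (-1.34), and Cox6a1 (-0.41) and Cox7a2 (-0.57) of complex IV were not called by their brightest probe sets. Cycs, cytochrome c, was at 6703, 4410.4, 4277 and 4318 on the ATLO arrays and 9786, 7924 and 9184 on the wild-type arrays (log2 change -0.89 ± 0.26, adjusted p = 0.0215). Outside-lesion arrays had it at 28946, 13139.9, 23687 and 22429, called above wild type (log2 change 1.25 ± 0.26, adjusted p = 0.0271). Outside the lesion 6 of the 37 were called above wild type (background 1.4%), with a median of 0.71. Without single arrays the counts moved to 7 lower without wild-type replicate 3 for the cycle and 13 lower without wild-type replicate 3 for oxidative phosphorylation. The call came from a dimmer probe set for Mdh2 (-1.15), Cox6a1 (-0.65) and Cox7a2 (-0.92). Not every probe set gave the call for Dlst (-0.42) and Sdhd (-0.33). Dropping 1 array at a time lost the call for Cs (without wild-type replicate 3, log2 change -0.90, adjusted p = 0.0807) and Cycs (without ATLO replicate 3 or 4 or wild-type replicate 1 or 3, log2 change -0.87 to -0.82, adjusted p up to 0.0787). A call appeared for Cox7a2 (without ATLO replicate 1, log2 change -0.68, adjusted p = 0.0422).

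Glycolysis genes were lower too, 10 of 15 (median -0.74), with the heart-type lactate dehydrogenase Ldhb (-1.71), the phosphofructokinase Pfkl (-1.399) and hexokinase Hk2 (-1.15) in front. Pkm (-0.56) and Pfkp (-0.47) were not called. The glucose transporter Slc2a1, found on most cells, was called higher (1494, 1251, 1049.7 and 1227 on the ATLO arrays and 698, 557 and 397 on the wild-type arrays, log2 change 1.22 ± 0.20, adjusted p = 9.06e-04), opposite to the fat and muscle transporter Slc2a4. The fructose transporter Slc2a5 (-2.49) and the glutamine transporter Slc1a5 (-2.51) were among the 15 largest falls. So were the tubulin Tuba8 (-2.53), the cytochrome P450 Cyp2b10 (-3.22) and 1190005I06Rik (-2.64). When 1 array was dropped, the glycolysis count moved to 6 lower without wild-type replicate 2 or 3. The test was missed by dimmer probe sets of Slc2a1 (0.47 and 0.38) and Cyp2b10 (-1.58). The floor was not reached by 1 of 4 ATLO arrays for Slc2a5, 2 of 4 ATLO arrays for Tuba8 and 1 of 4 ATLO arrays for 1190005I06Rik. A fold change moved by over 1.5 times, but stayed called, for Cyp2b10 (log2 change -3.87 without wild-type replicate 1). Leaving out single arrays ended the call for Pfkl (without wild-type replicate 2, log2 change -1.31, adjusted p = 0.0546), Hk2 (without wild-type replicate 2 or 3, log2 change -1.07 to -1.03, adjusted p up to 0.0611) and Cyp2b10 (without wild-type replicate 3, log2 change -2.44, adjusted p = 0.0721). Calls were gained for Pfkp (without wild-type replicate 2, log2 change -0.62, adjusted p = 0.042).

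**Figure D5:**
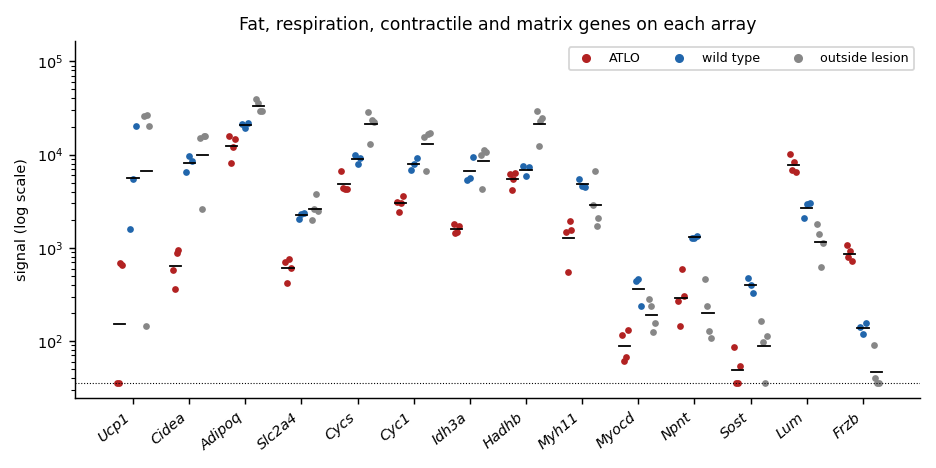
Signal of 14 genes of fat, respiration, smooth muscle and matrix (horizontal axis) on each array, on a log scale (vertical axis). Red points are ATLO, blue wild type and grey outside-lesion arrays, black bars are means of log2 values, and the dotted line is the floor of 35.1, where values below it are drawn. Npnt and Sost are low in both mutant groups, and Lum and Frzb are highest in ATLO and lowest outside the lesion.

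Smooth muscle contractile genes were lower in 15 of 22 (median -1.31), none higher. Myh11, smooth muscle myosin, was read at 1488, 556, 1963 and 1565 on the ATLO arrays and 5494, 4661 and 4452 on the wild-type arrays (log2 change -1.94 ± 0.45, adjusted p = 0.00682), and Myocd, the coactivator that turns on contractile genes, at 117, 60.5, 67.9 and 131 on the ATLO arrays and 439, 462 and 236 on the wild-type arrays (log2 change -2.03 ± 0.37, adjusted p = 0.00188). Neither overlapped. Myl9, the myosin light chain (log2 change -1.80 ± 0.38, adjusted p = 0.00427), Tagln (-1.34) and calponin, Cnn1 (-1.42), fell, whereas Acta2, smooth muscle actin, was not called by its brightest probe set (19878, 7081, 18768 and 12637 on the ATLO arrays and 22158, 19863 and 21869 on the wild-type arrays, log2 change -0.65 ± 0.39, adjusted p = 0.235). Its second probe set was called (-1.52). Npnt, nephronectin, a ligand of the integrin Itga8 that also fell (-1.37), showed another pattern. Npnt was at 266, 145, 590 and 302 on the ATLO arrays and 1263, 1267 and 1346 on the wild-type arrays (log2 change -2.17 ± 0.48, adjusted p = 0.00543). Outside-lesion arrays had it at 466, 236, 129.3 and 108 (log2 change -2.71 ± 0.48, adjusted p = 0.0177), so that all 8 mutant arrays were below all wild-type arrays. Outside the lesion 2 contractile genes were called below wild type (background 1.68%), and 5 were called lower in ATLO than outside the lesion (background 14.9%). Tpm1 was not called (-1.04). Without single arrays the count moved to 7 lower without ATLO replicate 2 or wild-type replicate 1 or 2 and 8 lower without ATLO replicate 4 or wild-type replicate 3. Dimmer probe sets gave a call for Tpm1 (-1.34). Some dimmer probe sets were not called, for Npnt (-0.63). Omission of 1 array removed the call for Tagln (without ATLO replicate 2, 3 or 4 or wild-type replicate 1, 2 or 3, log2 change -1.43 to -1.06, adjusted p up to 0.104), Cnn1 (without ATLO replicate 2 or 4 or wild-type replicate 1, 2 or 3, log2 change -1.51 to -1.19, adjusted p up to 0.105) and Itga8 (without ATLO replicate 1, 2 or 4 or wild-type replicate 1 or 2, log2 change -1.42 to -1.05, adjusted p up to 0.175).

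Contractile genes are switched on through the CArG box, a site of serum response factor with CC, 6 of A or T, and GG. Promoters were at hand for 18 of the 22 genes, and of 20 promoters 2 held a CArG box (10%), against 1.63% of all promoters. Of these genes Srf, which encodes the factor itself, was not called (326, 380.1, 397 and 396 on the ATLO arrays and 319, 369.7 and 392 on the wild-type arrays, log2 change 0.058 ± 0.19, adjusted p = 0.848), and Myl9 fell. The Myl9 promoter lies at chr2:156775214-156775513 (plus strand), and its CArG box, in capitals, begins 161 bases before the start.
Myl9 promoter: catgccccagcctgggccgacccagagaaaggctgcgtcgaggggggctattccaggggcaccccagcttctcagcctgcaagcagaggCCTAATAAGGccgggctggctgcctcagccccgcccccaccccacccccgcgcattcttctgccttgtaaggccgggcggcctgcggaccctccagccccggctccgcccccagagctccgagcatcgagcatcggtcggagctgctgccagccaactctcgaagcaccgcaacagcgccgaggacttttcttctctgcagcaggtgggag

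Of 9 pericyte genes 2 were lower. Rgs5 (log2 change -1.04 ± 0.31, adjusted p = 0.0249) and Cspg4 (-0.92) fell, and Pdgfrb (0.51) and Steap4 (0.40) were not called. Vascular endothelial genes were lower in 4 of 19 (median -0.43), close to the background share. Those 4 were Kdr (433, 515, 395 and 599 on the ATLO arrays and 873, 1009 and 897 on the wild-type arrays, log2 change -0.95 ± 0.17, adjusted p = 0.0017) and Flt1 (-0.82), the receptors for vascular endothelial growth factor, Tek, the angiopoietin receptor (-0.80), and Nos3, endothelial nitric oxide synthase (-0.75). The junction proteins Pecam1 (log2 change -0.44 ± 0.32, adjusted p = 0.326) and Cdh5 (-0.19), the clotting factor Vwf (-0.72) and Ramp2 (-0.10) were not called. Of 5 lymphatic genes, Itga9 fell (-1.18) and Pdpn was not called (0.19). With 1 array left out the counts moved to 1 higher without ATLO replicate 2 or wild-type replicate 3, 0 lower without ATLO replicate 2 or wild-type replicate 1 or 2 and 1 lower without ATLO replicate 4 or wild-type replicate 3 for pericytes, 2 lower without ATLO replicate 2 or wild-type replicate 3 for the endothelium, and 0 lower without ATLO replicate 2 or wild-type replicate 2 for the lymphatics. By a dimmer probe set the test was passed for Steap4 (-1.23). Without a call were dimmer probe sets of Rgs5 (-1.23 and -1.35), Cspg4 (-0.32) and Itga9 (-0.0081). With probe sets averaged per gene, the call ended for Rgs5 (-1.15, adjusted p = 0.0609), Cspg4 (-0.62, adjusted p = 0.107) and Itga9 (-0.59, adjusted p = 0.199). Calls that did not survive without 1 array were those of Rgs5 (without ATLO replicate 2 or wild-type replicate 1 or 2, log2 change -0.98 to -0.80, adjusted p up to 0.0961), Cspg4 (without ATLO replicate 2 or 4 or wild-type replicate 1, 2 or 3, log2 change -1.03 to -0.68, adjusted p up to 0.124), Flt1 (without wild-type replicate 3, log2 change -0.59, adjusted p = 0.0738), Tek (without ATLO replicate 2 or wild-type replicate 2 or 3, log2 change -0.83 to -0.65, adjusted p up to 0.103), Nos3 (without ATLO replicate 2 or wild-type replicate 1 or 3, log2 change -0.71 to -0.56, adjusted p up to 0.114) and Itga9 (without ATLO replicate 2 or wild-type replicate 1 or 2, log2 change -1.12 to -0.89, adjusted p up to 0.12). The call was gained for Pdgfrb (without ATLO replicate 2, log2 change 0.67, adjusted p = 0.0273) and Steap4 (without wild-type replicate 3, log2 change 0.68, adjusted p = 0.0403).

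The fibrous matrix changed in a few members. Of 15 collagen genes, 4 rose and none fell (median 0.53), and those that rose were all of fibril-forming types. Col1a1 was read at 3842, 2292, 3408 and 4018 on the ATLO arrays and 968, 1193 and 753 on the wild-type arrays (log2 change 1.80 ± 0.39, adjusted p = 0.00495) and Col3a1 at 25948, 12359, 28787 and 24028 on the ATLO arrays and 7986, 8909.5 and 7848 on the wild-type arrays (log2 change 1.398 ± 0.34, adjusted p = 0.00897), both without overlap, with Col5a1 (0.88) and Col5a2 (log2 change 1.31 ± 0.24, adjusted p = 0.00193) beside them. Col1a2 was not called by its brightest probe set (0.63) but by a second one. The basement membrane chains Col4a1 (-0.19) and Col4a2 (0.13) were not called. Of 20 proteoglycan and elastic fibre genes, Lum, the collagen-binding proteoglycan lumican, rose (10063, 6869.5, 8270.2 and 6566 on the ATLO arrays and 2098, 2947 and 3047 on the wild-type arrays, log2 change 1.56 ± 0.30, adjusted p = 0.00252) and Ogn, osteoglycin, fell (log2 change -0.90 ± 0.26, adjusted p = 0.0199). Decorin, Dcn (-0.032), biglycan, Bgn (0.17), and elastin, Eln (log2 change -0.071 ± 0.39, adjusted p = 0.913), were not called. Outside the lesion Lum was at 1809.6, 1424, 618 and 1138, called below wild type (log2 change -1.20 ± 0.30, adjusted p = 0.0482), so that it was highest in ATLO and lowest in outside-lesion adventitia. With 1 array omitted the proteoglycan counts moved to 2 higher without wild-type replicate 2, 3 higher without ATLO replicate 2, 0 lower without ATLO replicate 1 or wild-type replicate 1, 2 or 3 and 2 lower without ATLO replicate 3, and the collagen counts to 1 lower without ATLO replicate 3. Not every probe set gave the call for Col5a1 (0.46 and 0.55). Averaging the probe sets of a gene ended the call for Col5a1 (0.63, adjusted p = 0.0599). The call ended on removing single arrays for Col5a1 (without ATLO replicate 1, 3 or 4 or wild-type replicate 1, 2 or 3, log2 change 0.75 to 1.02, adjusted p up to 0.146) and Ogn (without ATLO replicate 1 or wild-type replicate 1, 2 or 3, log2 change -0.93 to -0.79, adjusted p up to 0.0632).

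Adventitial fibroblast genes moved both ways, 3 of 16 higher and 5 lower. Cxcl12, the chemokine of CXCR4-bearing cells, was read at 17476, 10853, 19288 and 13704 on the ATLO arrays and 4113, 5302 and 6078 on the wild-type arrays (log2 change 1.55 ± 0.28, adjusted p = 0.00166), and Dpp4, a surface protease (1.68), and Thy1, also on T cells (0.93), rose with it. The factor Tcf21 (-1.27) and Clec3b (258, 263, 471 and 390.1 on the ATLO arrays and 701, 798 and 754 on the wild-type arrays, log2 change -1.17 ± 0.27, adjusted p = 0.00665) fell, as did Igfbp6, Cd34 and Gli1, the hedgehog target that marks adventitial progenitors (-0.82). Clec3b was called below wild type outside the lesion too (log2 change -1.10 ± 0.27, adjusted p = 0.0445). Gsn (-0.48) and Dpt (0.36) were not called. Without single arrays the counts moved to 2 lower without wild-type replicate 2 or 3. Not called without certain arrays were Tcf21 (without ATLO replicate 2 or 3 or wild-type replicate 1, 2 or 3, log2 change -1.36 to -0.93, adjusted p up to 0.137) and Gli1 (without wild-type replicate 2, log2 change -0.70, adjusted p = 0.0771).

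Enzymes that cut matrix included several of the largest rises. Of 20 tested, 7 were higher and 3 lower, the latter near the background share. Mmp3, stromelysin, was read at 16075, 7584, 12426 and 6985 on the ATLO arrays and 1088, 2054 and 5267 on the wild-type arrays (log2 change 2.16 ± 0.53, adjusted p = 0.00936), with wild-type replicate 3 nearest to ATLO. Mmp13, a collagenase, was at 742, 775, 226 and 181 on the ATLO arrays and 21.8, 2.6 and 24.2 on the wild-type arrays, with wild type below the floor, so that 3.48 is a lower bound. Mmp12 and Mmp13 passed the brightness filter only through the ATLO arrays, so that their place among the higher genes depends on it. The membrane-bound Mmp14 (1.53) and the gelatinase Mmp2 (1.17) rose, and the other gelatinase, Mmp9, fell. Inhibitors split as well. Timp1 rose (4737, 1719, 3522 and 2231 on the ATLO arrays and 336, 514 and 679 on the wild-type arrays, log2 change 2.53 ± 0.40, adjusted p = 7.25e-04), Timp3 (-1.47) and Timp4 (-1.11) fell, and Timp2 was not called (-0.17), nor was the cathepsin inhibitor Cst3 (0.069). Only dimmer probe sets were called for Timp2 (-1.01). The test was missed by dimmer probe sets of Timp3 (-0.76 and -0.83). Over 1.5 times apart without 1 array, yet called, was the fold change of Mmp3 (log2 change 2.76 without wild-type replicate 3). The call depended on 1 array for Mmp3 (without wild-type replicate 1, log2 change 1.62, adjusted p = 0.0507).

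Secreted inhibitors of Wnt signalling went in opposite directions. Sost, sclerostin, was read at 85.7, 28.7, 23.9 and 53.9 on the ATLO arrays and 470.5, 396 and 329 on the wild-type arrays (log2 change -3.01 ± 0.48, adjusted p = 7.47e-04), without overlap. Outside-lesion arrays had it at 165, 97.2, 15.8 and 114, also called below wild type (log2 change -2.14 ± 0.48, adjusted p = 0.0343). Frzb was at 1069.5, 793, 916 and 728 on the ATLO arrays and 140.5, 119.8 and 157 on the wild-type arrays (log2 change 2.65 ± 0.32, adjusted p = 1.45e-04), without overlap, but outside the lesion at 90.8, 40.2, 15.1 and 20.9, below wild type (log2 change -1.59 ± 0.32, adjusted p = 0.0255). Sfrp4 (6671, 5680.3, 11122 and 5204 on the ATLO arrays and 1433, 2002 and 2625 on the wild-type arrays, log2 change 1.80 ± 0.28, adjusted p = 7.40e-04) and Sfrp1 (0.93) rose, and Sfrp2 (-0.18) and Dkk3 (-0.72) were not called. Of the insulin-like growth factor axis, the binding protein Igfbp3 rose (1.22), and Igfbp5 (-1.19), Igfbp6 (-1.02) and Igfals (-0.97) fell. Igf1 (log2 change 0.37 ± 0.18, adjusted p = 0.139), Igfbp4 (0.37) and Igfbp7 (0.58) were not called. When 1 array was dropped, the axis count moved to 2 higher without ATLO replicate 2 and 1 lower without wild-type replicate 3. Some dimmer probe sets were not called, for Sfrp1 (0.53 and 0.25) and Igfbp5 (-0.77). With probe sets averaged per gene, the call ended for Sfrp1 (0.57, adjusted p = 0.167). Signals were under the floor on 2 of 4 ATLO arrays for Sost. Outside the lesion, Frzb in replicates 3 and 4 and Sost in replicate 3 were under the floor, which understates their falls there. With fewer arrays no call was left for Sfrp1 (without ATLO replicate 1 or 4 or wild-type replicate 2 or 3, log2 change 0.75 to 0.89, adjusted p up to 0.109), Igfbp5 (without wild-type replicate 3, log2 change -1.03, adjusted p = 0.0658) and Igfbp6 (without wild-type replicate 3, log2 change -0.80, adjusted p = 0.0802). A call appeared for Igfbp4 (without ATLO replicate 2, log2 change 0.69, adjusted p = 0.0467).

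Of 21 genes of transforming growth factor and bone morphogenetic protein signalling, 3 were higher, near the background share, and 6 lower. Those lower were the bone morphogenetic protein ligands Bmp6 (log2 change -1.31 ± 0.26, adjusted p = 0.00301) and Bmp4 (-0.87), the receptor Bmpr1a (-0.71) and the targets Smad6 (-1.23) and Id1 (-0.89), and the ligand Tgfb3 (-1.30). Ltbp2, a matrix protein of this family, rose (log2 change 1.45 ± 0.32, adjusted p = 0.00564), with the receptor Tgfbr1 (0.81) and Id2 (1.03). The target Ccn2 (-0.61) and the receptor Tgfbr2 (0.18) were not called. Of 6 cartilage and bone genes, Prg4, the joint lubricant lubricin, was read at 2791, 2452, 2756 and 1368 on the ATLO arrays and 136, 165 and 648 on the wild-type arrays (log2 change 3.21 ± 0.44, adjusted p = 3.30e-04), clearly above wild type. Sp7, a bone cell factor, fell (-1.41), and Mgp, an inhibitor of calcification (0.32), and Fmod (0.31) were not called. Without wild-type replicate 3, 2 of these genes were called higher. The call came from a dimmer probe set for Fmod (1.31). Without a call were dimmer probe sets of Bmpr1a (-0.50, -0.27 and -0.44) and Id2 (-0.099 and 0.38). Averaging the probe sets of a gene ended the call for Id2 (0.44, adjusted p = 0.0745). Still called, but moved by over 1.5 times without 1 array, was the fold change of Prg4 (log2 change 3.92 without wild-type replicate 3). Dropping 1 array at a time lost the call for Tgfb3 (without wild-type replicate 3, log2 change -1.02, adjusted p = 0.0936).

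Nerve genes gave no call in either direction, and the wild-type arrays spread widely. Of 12 sympathetic neuron genes and 19 axon and presynaptic genes none was called, with medians of -0.16 and -0.16. The direction of these medians turned with single arrays. Without wild-type replicate 1 they were 0.87 and 0.90, without ATLO replicate 2 they were 0.25 and 0.27, and without wild-type replicate 2 they were -0.97 and -1.16. Th, tyrosine hydroxylase, which makes the precursor of noradrenaline, was read at 717, 159.7, 463 and 995 on the ATLO arrays and 2462, 142 and 470.3 on the wild-type arrays (log2 change -0.19 ± 1.09, adjusted p = 0.916). Dbh, the next enzyme of that path, was at 442, 286, 709 and 946 on the ATLO arrays and 2381, 188 and 473 on the wild-type arrays (log2 change -0.14 ± 0.86, adjusted p = 0.921). The cotransmitter Npy was at 1975, 924, 2936 and 2407 on the ATLO arrays and 9676, 326 and 1628 on the wild-type arrays (log2 change 0.14 ± 1.16, adjusted p = 0.946), and the growth cone proteins Stmn2 at 506, 279, 545 and 687 on the ATLO arrays and 3414, 209 and 604 on the wild-type arrays and Gap43 at 217, 77.4, 169 and 332 on the ATLO arrays and 1321, 43.0 and 137 on the wild-type arrays. In all 5 genes wild-type replicate 1 was the brightest of the 7 arrays and wild-type replicate 2 was the dimmest. The same order held for the synuclein Sncg (1027, 632, 1779 and 1632 on the ATLO arrays and 3133, 562 and 909 on the wild-type arrays). With standard errors above 1 on the log2 scale, as for Th, a difference of 2-fold was not detectable in such genes. The numbers of calls stayed at 0 without any 1 array. Outside the lesion Th was at 69.9, 49.3, 287 and 1368, spread as widely. Cyb561 (-0.28) and Vamp2 (0.33) were not called. No gene of the sensory neuron list was bright enough to test.

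Of 14 Schwann cell and myelin genes Dhh, desert hedgehog, fell (log2 change -1.01 ± 0.29, adjusted p = 0.0211) and Cnp rose (log2 change 0.62 ± 0.19, adjusted p = 0.0257). Mbp, myelin basic protein (1376, 2409.7, 2847 and 1378 on the ATLO arrays and 4229, 1349 and 2089 on the wild-type arrays, log2 change -0.27 ± 0.48, adjusted p = 0.716), Pmp22 (-0.30) and the glial factor Sox10 (log2 change -0.57 ± 0.22, adjusted p = 0.0673) were not called. Of 9 neurotrophic factors and receptors, 4 fell, without a rise. They were the neurotrophin receptors Ntrk3 (46.7, 55.8, 62.1 and 78.7 on the ATLO arrays and 274, 211 and 161 on the wild-type arrays, log2 change -1.81 ± 0.38, adjusted p = 0.00434) and Ntrk2 (log2 change -0.90 ± 0.21, adjusted p = 0.0078), the ligand neurturin, Nrtn (-1.29), and the sorting receptor Sort1 (-0.83). Ntrk3 was low on all ATLO arrays. Ngfr (-0.071) and Sorl1 (-0.26) were not called. Among 23 genes that guide axons, 4 rose and 3 fell, both near the background shares. The semaphorin Sema4d (834, 1005, 892 and 946 on the ATLO arrays and 348, 522 and 254 on the wild-type arrays, log2 change 1.35 ± 0.22, adjusted p = 0.00102) and the receptor Plxnc1 (1.22), which lymphocytes and myeloid cells also carry, rose, and Sema3c (-1.28) and netrin, Ntn1 (-0.94), fell. Rtn4 (-0.34) and Nrp1 (-0.14) were not called. Of 6 receptors for transmitters and neuropeptides none was called, with Calcrl at 0.33 and Ramp1 at -0.62. With 1 array left out the counts moved to 0 higher without ATLO replicate 2 or 3 or wild-type replicate 2 or 3, 0 lower without wild-type replicate 1 or 3 and 2 lower without ATLO replicate 3 for Schwann cells and 1 lower without wild-type replicate 3 for guidance. Dimmer probe sets gave a call for Rtn4 (-1.11). Not every probe set gave the call for Cnp (-0.19) and Sort1 (0.17). With probe sets averaged per gene, the call ended for Cnp (0.39, adjusted p = 0.188) and Sort1 (-0.51, adjusted p = 0.056). Leaving out single arrays ended the call for Dhh (without wild-type replicate 1 or 3, log2 change -0.96 to -0.93, adjusted p up to 0.0815), Cnp (without ATLO replicate 2 or 3 or wild-type replicate 2 or 3, log2 change 0.44 to 0.63, adjusted p up to 0.128), Plxnc1 (without ATLO replicate 2 or wild-type replicate 2 or 3, log2 change 0.90 to 1.16, adjusted p up to 0.122), Sema3c (without wild-type replicate 1 or 3, log2 change -1.31 to -1.19, adjusted p up to 0.0733) and Ntn1 (without ATLO replicate 1, 2 or 4 or wild-type replicate 2 or 3, log2 change -0.96 to -0.78, adjusted p up to 0.0992). Calls were gained for Sox10 (without ATLO replicate 3, log2 change -0.68, adjusted p = 0.0455).

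Of 14 genes of lipoproteins and cholesterol efflux, 3 were higher and 3, with Apoe, lower. Npc1, which exports cholesterol from lysosomes (0.99), Abcg1 and Apoc2 (1.49) were higher, and Apoc1 (log2 change -1.42 ± 0.29, adjusted p = 0.00359) and Vldlr (-0.68) lower. Pltp (0.70) and Npc2 (-0.26) were not called. Apoc1 lies next to Apoe on chromosome 7, and the mutant strain, made in cells of another strain, can carry that strain's sequence around the targeted gene. Of the 50 protein-coding genes nearest to Apoe, 25 on each side, 22 were tested, 3 called higher and 4 lower, a share near that of all genes. Those higher were Relb, Bcl3 and Apoc2, and those lower Apoc1, Bcam (log2 change -1.502), Ppp1r37 (-1.11) and Cblc (-0.72). Outside the lesion Apoc1 was the 1 gene of the 22 called against wild type (log2 change -1.16 ± 0.29, adjusted p = 0.0482), where 3.08% of all genes were called. Probe sets read by altered sequence were not tested for. By a dimmer probe set the test was passed for Pltp (1.35). Below the floor lay 1 of 3 wild-type arrays for Apoc2. Omission of 1 array removed the call for Apoc2 (without ATLO replicate 1, 3 or 4 or wild-type replicate 1 or 2, log2 change 1.09 to 1.57, adjusted p up to 0.173) and Vldlr (without ATLO replicate 1, 2 or 3 or wild-type replicate 1 or 2, log2 change -0.72 to -0.49, adjusted p up to 0.138). The call was gained for Pltp (without ATLO replicate 2, log2 change 0.95, adjusted p = 0.00661).

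Immediate early genes, which handling of tissue can raise within minutes, were called higher near the background share, and none was called lower. Of 19, 2 were higher (Zfp36, 1.12, and Jund, 1.11), and Fos (1499.9, 1421, 816 and 2086 on the ATLO arrays and 979, 1107 and 1351 on the wild-type arrays, log2 change 0.28 ± 0.48, adjusted p = 0.695), Egr1 (-0.32) and Klf4 (-0.067) were not called. Of 16 clock genes, 2 were lower, near the background share (Hlf, log2 change -0.90 ± 0.22, adjusted p = 0.00873, and Cry2, -0.70), and Dbp (log2 change -0.35 ± 0.70, adjusted p = 0.745), Tef (-0.58) and Nr1d2 (-0.34) were not called. Ribosomal protein genes were higher in 5 of 19 (median 0.49). Rps9 stood out at 13853, 8262, 11326 and 11640.2 on the ATLO arrays and 4296, 3483 and 3073 on the wild-type arrays (log2 change 1.63 ± 0.23, adjusted p = 3.40e-04) and was also above wild type outside the lesion, at 11472, 10310, 6744 and 8106 (log2 change 1.32 ± 0.23, adjusted p = 0.0165). Rps3 (0.78), Rpl11 (0.59) and Rpl19 (0.56) followed, and Rps18 (0.47) and Rps24 (0.49) were not called. The muscle genes Acta1 (-0.30) and Pvalb (0.82) and the red cell genes Alas2 (-0.74) and Slc4a1 (-0.12) were not called. With 1 array omitted the ribosomal count moved to 1 higher without wild-type replicate 3, 2 higher without ATLO replicate 1, 3 or 4 or wild-type replicate 1, 3 higher without wild-type replicate 2 and 9 higher without ATLO replicate 2, the clock counts to 1 lower without ATLO replicate 2, 3 or 4 and the immediate early counts to 1 higher without ATLO replicate 1 or wild-type replicate 2 or 3. Only dimmer probe sets were called for Rps18 (0.80 and 0.54) and Rps24 (0.83, 0.58 and 0.69). The test was missed by dimmer probe sets of Rps9 (0.52). Averaging the probe sets of a gene ended the call for Rpl19 (0.56, adjusted p = 0.052). Calls that did not survive without 1 array were those of Jund (without ATLO replicate 1 or wild-type replicate 2 or 3, log2 change 0.96 to 1.15, adjusted p up to 0.0963), Cry2 (without ATLO replicate 2, 3 or 4 or wild-type replicate 1 or 3, log2 change -0.73 to -0.61, adjusted p up to 0.12), Rps3 (without ATLO replicate 1, 3 or 4 or wild-type replicate 1, 2 or 3, log2 change 0.62 to 0.84, adjusted p up to 0.134), Rpl11 (without wild-type replicate 3, log2 change 0.54, adjusted p = 0.0635) and Rpl19 (without ATLO replicate 1, 3 or 4 or wild-type replicate 1, 2 or 3, log2 change 0.47 to 0.66, adjusted p up to 0.168). A call appeared for Rps18 (without ATLO replicate 2, log2 change 0.67, adjusted p = 0.0139) and Rps24 (without ATLO replicate 2, log2 change 0.65, adjusted p = 0.0274).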

How the data were processed

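Affymetrix mouse arrays were read from the authors' deposited signals, an intensity for each probe set on a linear scale, made with GCOS 1.4 per the submitters' processing notes. For their scaling, the method is not given in the sources at hand. With 2% of probe sets trimmed at each end, the mean signal lay between 500.168 and 500.266 on the 11 arrays. Of 22690 probe sets 64 controls were left out, and 691 with several gene symbols and 1555 with none were tested but not named. Values under 35.1, percentile 20 of the whole table, were set to it before log2 was taken. Probe sets above their array's 40th percentile on at least 3 arrays were kept. A group-means model over all 11 arrays was fitted with limma 3.58.1 in R 4.3.3 (empirical Bayes with an intensity trend) and adjusted by Benjamini-Hochberg over 14988 probe sets. Of several probe sets of a gene, the 1 with the highest mean log2 signal stands for it. Promoters came from RefSeq tables of build GRCm38.p6. The fit was checked on simulated data. Genes named were the 15 largest rises and falls without overlap, per list the 4 called genes with the largest change and the 2 brightest not called, a set of core genes, and further members that complete a family, the last chosen with their values known. The groups and gene lists were chosen with earlier results of these data known. Arrays carry no read depth, so that their number limits the precision. Alternatives covered scaling, floor, filter, probe set choice, model and single arrays.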

Additional observations from a re-analysis of the deposited data

Results flagged for a closer look

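Dixon's criterion for a sample far from its group was applied to 368 groups of 4 arrays, and 18 had such an array (4.89%), where chance flags about 1 in 20. ATLO replicate 1 stood apart as the brightest array of its group in Cycs (6703, against 4277.4 to 4410.4 on the other 3) and Pdhb (4299.8, against 2605.1 to 2818.6 on the other 3). ATLO replicate 1 stood apart as the dimmest array of its group in Traf1 (197.4, against 343.3 to 363.7 on the other 3). ATLO replicate 2 stood apart as the brightest array of its group in Top2a (777.4, against 463.3 to 477.4 on the other 3). ATLO replicate 2 stood apart as the dimmest array of its group in C1qb (6188.2, against 11716.7 to 12497.6 on the other 3), Col1a2 (10493.8, against 20903.3 to 22009.8 on the other 3), Col4a1 (2618.8, against 5830.8 to 6282.7 on the other 3), Hk2 (682.6, against 916.1 to 950.4 on the other 3) and Rpl19 (10380.2, against 14955.1 to 15478.4 on the other 3). ATLO replicate 3 stood apart as the dimmest array of its group in Ccr7 (139.9, against 221.4 to 240.2 on the other 3), Iigp1 (1150.6, against 1758.7 to 1918 on the other 3) and Il21 (89.4, against 125.8 to 133.9 on the other 3). ATLO replicate 4 stood apart as the dimmest array of its group in Apoe (86.9, against 147 to 150.2 on the other 3), Creld2 (2260.7, against 5838.4 to 6801.2 on the other 3) and Slpi (2617.7, against 12872 to 17172.3 on the other 3). Outside-lesion replicate 2 stood apart as the dimmest array of its group in Ucp1 (143.4, against 20512.9 to 26623.9 on the other 3). For 2 of the 18, the array stood apart only because values below the floor of 35.1 were set to it. These were ATLO replicate 4 in Slc27a2 (39.7, against 6.2 to 27.8 on the other 3, all below the floor) and outside-lesion replicate 1 in Frzb (90.8, against 15.1 to 40.2 on the other 3).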

How the results depend on the processing

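The count of 4012 probe sets called stayed within 1.5 times under every scaling, floor, filter and model tried except the 2-fold threshold by limma's treat, which left 141. Leaving out 1 array gave 2740 (without wild-type replicate 1) to 3548 (without ATLO replicate 3). Equal array medians shifted the median change of all probe sets tested by 0.056 and raised the share of higher calls to 56%. Replicate numbers recur between groups. Deviations of same-numbered ATLO and wild-type arrays from their group means correlated at 0.00496, 0.273 and 0.188. Differently numbered arrays were not compared, so that these values cannot tell whether the numbers pair the arrays. With the number as a replicate block 3819 were called. Of the 358 genes named and tested, 229 were called, and no call changed direction. The call held for 152 of them under each of the 19 alternatives in which they were tested. The stricter filter left 201 of the 229 to test. The other 77 lost the call in 1 or more. Without a filter 55 were lost, with the replicate block 15, with averaged probe sets 12, with equal array medians or the actin ratio as covariate 11 each, and with 1 array left out 17 to 54. Averaging the probe sets of a gene turned the log2 change of Cpt1a (0.739, adjusted p = 0.0224) and the log2 change of Zap70 (0.7552, adjusted p = 0.0484) from uncalled falls to called rises, as other probe sets of both were higher.

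List medians (such as the median log2 change, cytotoxic and NK cell) moved by more than the spread between replicates in these cases. With the stricter filter, fewer genes were tested, and the median was 2.559 for T cell, 1.826 for cytotoxic and NK cell, 0.124 for lipid-loaded macrophage, 2.567 for neutrophil, -0.029 for IGF axis, -0.341 for lymphatic and -0.145 for transmitter receptor genes. Without a filter it was 1.158 for MHC class II, 1.361 for acute phase, -0.342 for lymphatic, -0.329 for neurotrophic and -0.054 for transmitter receptor genes. Averaged probe sets gave 1.915 for chemokines, 1.049 for NF-kappaB, -1.339 for fatty acid synthesis and -1.184 for the tricarboxylic acid cycle. Quantile normalization gave 0.369 for MHC class I, array weights 0.443 for MHC class I and 0.355 for immediate early genes, and the floor at the 30th percentile 1.449 for acute phase genes. With 1 array left out, medians ran from 1.412 to 1.867 for lymphoid organ formation, 0.437 to 0.598 for MHC class I, 0.222 to 0.492 for interferon, -0.468 to -0.038 for the IGF axis, -0.429 to -0.14 for TGF-beta and BMP, -0.241 to -0.07 for axon guidance and -0.744 to -0.449 for transmitter receptors. Where the number of genes or arrays did not change, the cause was not tested.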
